A study of Homo sapiens with 8 samples.

Results

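Mitochondrial ribosomal proteins were read as the genes whose symbol starts with MRPL or MRPS followed by a digit, which gave 75 of the 18132 genes measured. By symbol, 48 of them belong to the large subunit (MRPL) and 27 to the small subunit (MRPS). A gene can have several probe sets, groups of probes that report 1 transcript region, and the brightest on average over all arrays, among those naming 1 gene, stood for the gene. The probe set was thus selected on mean signal, and the family itself was chosen by symbol with its difference between the groups already known, so its counts and medians describe these arrays and test nothing about the family. RNA came from AGS, an established human gastric adenocarcinoma cell line, on 4 arrays of cells kept for 72 hours with 3.4 nM podofilox and 4 arrays of control cells. Podofilox is podophyllotoxin, a tubulin-binding drug that keeps microtubules from forming. The labels do not state whether control cells were given solvent or how long they were kept. Whether replicates grew as separate cultures is not stated either, so the spread behind each p-value may be technical.

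Mitochondria carry ribosomes of their own, which make the few proteins that mitochondrial DNA encodes, all of them parts of the respiratory chain and the ATP synthase. The ribosomal RNA of these particles is encoded in mitochondrial DNA, whereas their proteins are encoded in the nucleus, made in the cytosol and imported. The large subunit forms peptide bonds and the small subunit reads the mRNA. Some of the proteins are kept from the bacterial ancestor and others exist only in mitochondria. One member, MRPL20-AS1, makes no protein and is a long non-coding RNA, identified by its Entrez number and counted with the large subunit because the symbol rule takes it in.

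All values are log2 expression, and a difference is podofilox minus control. Of the 7 gastric epithelial markers, 6 lay above the median gene. Of these markers 0 fell and 1 rose with podofilox (the tight junction gene CLDN4), and their mean was 11.30 to 11.34 on podofilox arrays and 11.13 to 11.20 on control arrays. The fibroblast list had 0 of 6 genes above the median gene, 0 fallen and 0 risen, with array means of 4.61 to 4.74 with podofilox and 4.53 to 4.71 in controls. Of the 7 immune genes measured, 2 lay above it (CD68 and LYZ), 0 fell and 1 rose (CD68), with array means of 6.19 to 6.25 with podofilox and 6.09 to 6.23 in controls. The endothelial list had 0 of 5 above it, 1 fallen (CDH5) and 0 risen, with array means of 5.69 to 5.87 with podofilox and 5.66 to 6.02 in controls. The part of these lists in the results was not tested. An array reports the share of each mRNA in the RNA, so fewer cells expressing a gene and less of its RNA per cell cannot be told apart.

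In both subunits the median mRNA of a mitochondrial ribosomal protein was slightly lower with podofilox than in control cells. Of the 48 MRPL genes, 17 fell and 1 rose at a limma adjusted p under 0.05 over all genes, and 30 did not pass the test. Of the 27 MRPS genes, 6 fell and 0 rose, with 0 differences above 0 at an unadjusted p under 0.05 either. Over all genes tested, 12.5% fell and 8.55% rose, 21.0% together. Since this contrast was known when the family was chosen, nothing is read from the distance between these shares. Among the genes above the median signal, where all 75 members lie, 21.5% fell and 12.4% rose.

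The falls were small. The members that passed the test with lower values in podofilox cells had a median fall of 1.14-fold (control over podofilox), 22 of these 23 were at least 1.1-fold lower and 5 at least 1.2-fold lower. No member (0 of 75) changed by 1.5-fold or more in either direction. The median difference was -0.087 over MRPL genes and -0.082 over MRPS genes, beside 0.0069 over all genes and -0.030 over genes above the median signal. From the lower to the upper quartile the members spanned -0.17 to -0.020, and the genes above the median signal -0.14 to 0.076. In both subunits most differences lay below 0, in 40 of 48 MRPL and 23 of 27 MRPS genes. Over all genes 47.8% lay below 0, and among genes above the median signal 57.8%.

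**Figure D1:**
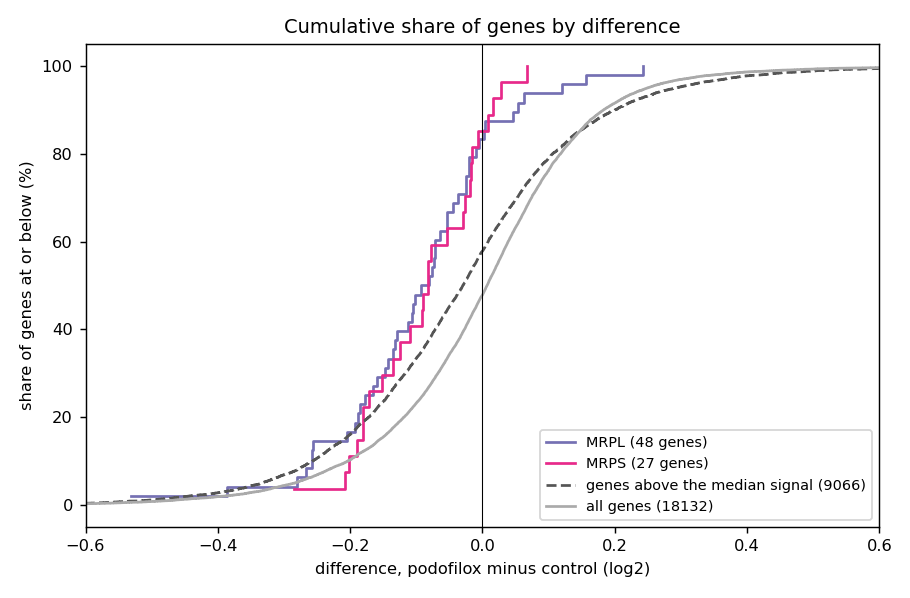
The cumulative share of genes (vertical axis, %) is drawn against the difference between podofilox and control (horizontal axis, log2) for 48 MRPL genes, 27 MRPS genes, 9066 genes above the median signal and all 18132 genes. Both member curves lie left of the other curves around 0, and the MRPS curve ends at 0.068. Below 0 are 40 of 48 MRPL and 23 of 27 MRPS genes, 57.8% of genes above the median signal and 47.8% of all genes.

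Averaged over its 48 genes, the large subunit gave 9.84, 9.86, 9.84 and 9.84 on podofilox arrays 1 to 4, against 9.93, 9.98, 9.93 and 9.94 on control arrays 1 to 4. The small subunit averaged 9.77, 9.81, 9.78 and 9.77 on podofilox arrays and 9.84, 9.92, 9.85 and 9.88 on control arrays. For both subunits the highest podofilox array lay below the lowest control array. The mean over all genes was 7.07, 7.07, 7.04 and 7.07 on podofilox arrays and 7.07, 7.05, 7.08 and 7.07 on control arrays, where the groups overlap. The values had been normalized between arrays, which keeps this mean nearly equal on every array. Its overlap is thus no contrast to the members. The 4 podofilox values lay under the lowest control value in 19 MRPL and 11 MRPS genes, as they did in 15.6% of all genes. They lay over the highest control value in 2 MRPL and 0 MRPS genes, and in 10.6% of all genes. Of the 9066 genes above the median signal, where all members lie, 2480 had all podofilox values under and 1369 all over the control values.

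The bases before the gene start are shown for 6 members, to set a fallen gene without a known promoter element beside genes that have it, some fallen and some not past the test. Nuclear genes of mitochondrial proteins often carry elements for ETS factors, among them GABP (also called NRF-2), and such elements were looked for as CCGGAAG or its reverse complement CTTCCGG, in capitals below. Each window holds the 80 bases before the start on the strand of the gene, 5′ to 3′, from RefSeq (GRCh38.p14). MRPL1 lies at chr4:77862750-77862829 on the plus strand, MRPL20 at chr1:1407294-1407373 on the minus strand, and MRPL27 at chr17:50373185-50373264 on the minus strand. MRPL40 lies at chr22:19432465-19432544 on the plus strand, MRPS31 at chr13:40771191-40771270 on the minus strand, and MRPS34 at chr16:1773135-1773214 on the minus strand.
MRPL1: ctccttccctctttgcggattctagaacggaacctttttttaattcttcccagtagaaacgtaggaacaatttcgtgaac
MRPL20: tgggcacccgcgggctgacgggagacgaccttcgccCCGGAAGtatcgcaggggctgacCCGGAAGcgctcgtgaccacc
MRPL27: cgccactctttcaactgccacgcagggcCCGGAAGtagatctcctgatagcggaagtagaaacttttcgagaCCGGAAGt
MRPL40: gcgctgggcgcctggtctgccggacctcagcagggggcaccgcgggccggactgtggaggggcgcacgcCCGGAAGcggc
MRPS31: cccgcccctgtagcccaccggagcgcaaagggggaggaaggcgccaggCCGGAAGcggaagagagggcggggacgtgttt
MRPS34: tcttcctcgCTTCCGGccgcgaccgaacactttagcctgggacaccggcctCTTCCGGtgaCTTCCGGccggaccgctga
The first 4 genes fell with podofilox. MRPL1 has 0 matches in its window, MRPL20 and MRPL27 have 2 each and MRPL40 has 1. MRPS31 with 1 match and MRPS34 with 3 matches did not pass the test, at differences of -0.016 and -0.090.

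The first gene of that set also had the largest difference of the family. MRPL1, the protein of the L1 stalk, which in bacteria moves with the tRNA that leaves the ribosome, read 8.80, 8.76, 8.83 and 8.78 on podofilox arrays 1 to 4, against 9.26, 9.38, 9.35 and 9.30 on control arrays 1 to 4. The groups lay far apart relative to their spread. The difference was -0.53 (95% interval -0.63 to -0.43), 1.44-fold lower with podofilox, with a limma adjusted p of 5.46e-05. Its probe set is marked _x_at by the manufacturer, so some of its probes may also match other transcripts, and the other MRPL1 probe set differed by -0.59 and passed the test.

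MRPL20-AS1, the non-coding member, read 8.13, 8.07, 7.98 and 8.03 with podofilox and 8.48, 8.44, 8.43 and 8.41 in controls. That is a difference of -0.39 (adjusted p = 0.000342), whereas its other probe set, at -0.17, did not pass the test. MRPL20, a protein that in bacteria binds ribosomal RNA early in assembly, read 10.67, 10.70, 10.71 and 10.70 with podofilox and 10.98, 10.98, 10.90 and 10.95 in controls, a difference of -0.26 (adjusted p = 0.00137). Every podofilox array lay below every control array for both genes. The MRPL20 call rests on 1 probe set of the _s_at kind, since its other probe sets, at 0.06 and -0.11, did not pass the test.

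Another early RNA binder of the bacterial large subunit, MRPL24, read 9.68, 9.71, 9.59 and 9.67 with podofilox and 9.93, 10.01, 9.89 and 9.94 in controls. It fell by 0.28 on the log2 scale (adjusted p = 0.00207). MRPL16, which lies near the peptidyl transferase centre where peptide bonds form, read 10.89, 10.99, 10.86 and 10.91 with podofilox and 11.14, 11.21, 11.16 and 11.17 in controls. It fell by 0.26 (adjusted p = 0.00252), and the podofilox values of both genes lay below all control values.

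The stalk that recruits translation factors has MRPL11 at its base and carries copies of MRPL12. MRPL12 read 10.13, 10.08, 9.93 and 10.04 with podofilox and 10.26, 10.28, 10.34 and 10.33 in controls, a difference of -0.26 (adjusted p = 0.00578), and its second probe set differed by -0.35 and passed too. MRPL11 read 9.86, 9.86, 9.83 and 9.82 with podofilox and 9.96, 10.09, 10.04 and 10.05 in controls, a difference of -0.19 (adjusted p = 0.00923). Neither gene had a podofilox array that reached the lowest control array. MRPL10, a stalk protein outside the rule for named members, went the other way. Its difference was 0.12, with all podofilox values above all control values, but it did not pass the test (limma adjusted p = 0.0795).

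MRPL40 and MRPL57 exist only in mitochondrial ribosomes. MRPL40 read 9.09, 9.09, 9.01 and 9.03 with podofilox and 9.26, 9.40, 9.33 and 9.30 in controls, a difference of -0.27 (adjusted p = 0.00254). MRPL57 read 10.93, 10.93, 10.75 and 10.87 with podofilox and 11.05, 11.05, 11.10 and 11.08 in controls, a difference of -0.20 (adjusted p = 0.0146). The 3 other MRPL57 probe sets differed by -0.28, -0.29 and -0.30, and all 3 passed the test. Of these MRPL57 values, podofilox array 3 was the lowest.

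MRPL18, of the family that in the bacterial and cytosolic ribosome binds the 5S RNA, was the 1 member that rose. It read 10.71, 10.69, 10.94 and 10.72 with podofilox and 10.55, 10.51, 10.54 and 10.48 in controls, a difference of 0.24 (95% interval 0.11 to 0.37, adjusted p = 0.0158) or 1.18-fold. All podofilox values lay above all control values, with array 3 the highest. Its other probe sets, at 0.05 and 0.06, did not pass the test. Without podofilox array 3 the difference was 0.18 (adjusted p = 0.0127), and without control array 4 the call was lost (adjusted p = 0.0507).

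Other large subunit members had differences near 0 or near the threshold. MRPL58, which frees peptides from stalled ribosomes, read 8.52, 8.55, 8.55 and 8.51 with podofilox and 8.60, 8.69, 8.66 and 8.73 in controls, a difference of -0.14 (adjusted p = 0.0376) that passed in only 2 of the 8 fits that left out 1 array (without podofilox array 3 and without control array 1). MRPL44, which has the fold of ribonuclease III, read 9.67, 9.64, 9.62 and 9.66 with podofilox and 9.67, 9.68, 9.69 and 9.57 in controls. Its groups overlap, with a difference of -0.0051 and a 95% interval of -0.10 to 0.09. MRPL50 and MRPL34 were as close to 0, at 0.0027 and 0.0034. The large subunit members just inside and just outside the threshold were MRPL36 at -0.15 (adjusted p = 0.0489), which passed in 1 of these 8 fits, and MRPL49 at -0.13 (adjusted p = 0.0769). The 6 other MRPL genes that fell, outside the rule for named members, were MRPL21, MRPL27, MRPL15, MRPL55, MRPL19 and MRPL3, at -0.19 to -0.13. Among them only MRPL15 passed with each array left out in turn, and only MRPL55 had overlapping groups. The 30 MRPL genes that did not pass the test ranged from -0.14 to 0.16, with 23 below 0.

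In the small subunit, MRPS17 had the largest difference. This relative of a bacterial protein that binds ribosomal RNA early read 9.60, 9.63, 9.52 and 9.43 with podofilox and 9.81, 9.86, 9.78 and 9.86 in controls. The difference was -0.29 (adjusted p = 0.00361), and its 3 other probe sets, at -0.37, -0.29 and -0.23, passed the test as well. MRPS2, a protein kept from bacteria, read 9.85, 9.84, 9.73 and 9.80 with podofilox and 9.94, 10.05, 10.01 and 10.05 in controls, a difference of -0.21 (adjusted p = 0.00942). For both genes every podofilox array lay below every control array.

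MRPS7, whose bacterial relative starts the assembly of the head of the small subunit, read 9.92, 9.89, 9.84 and 9.89 with podofilox and 10.04, 10.12, 10.09 and 10.05 in controls. It fell by 0.19 on the log2 scale (adjusted p = 0.00904), and its second probe set fell by 0.26. MRPS12, a protein of the decoding centre, read 10.50, 10.55, 10.50 and 10.52 with podofilox and 10.61, 10.72, 10.68 and 10.68 in controls. Its groups did not overlap, but the difference of -0.15 (adjusted p = 0.0245) was the last inside the threshold, and it passed in 3 of the 8 fits that left out 1 array (without podofilox array 2 or 3 or control array 1). MRPS15 lay just outside, at -0.12 (adjusted p = 0.0567).

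Of the mitochondria-specific small subunit proteins, MRPS33 and MRPS25 fell. MRPS33 read 9.88, 9.93, 9.87 and 9.88 with podofilox and 10.07, 10.13, 10.07 and 10.11 in controls, a difference of -0.20 (adjusted p = 0.00515). MRPS25 read 8.79, 8.78, 8.72 and 8.66 with podofilox and 8.89, 8.90, 8.96 and 8.92 in controls, a difference of -0.18 (adjusted p = 0.0153), and 1 of its 4 other probe sets passed the test as lower. The groups of both genes did not overlap. MRPS27, a pentatricopeptide repeat protein, stood at -0.027, short of the threshold. MRPS18C, MRPS10 and MRPS31 differed by -0.0075, 0.0088 and -0.016. Another MRPS18C probe set, of the _x_at kind, passed as lower at -0.18 (limma adjusted p = 0.0255 over all single-gene probe sets). A dimmer one, at -0.053, did not pass. MRPS30 and MRPS18A, which structures place in the large subunit in spite of their names, differed by -0.11 and -0.017, and neither passed the test, so reading them with the large subunit gives 17 fallen and 1 risen of 50. The 21 MRPS genes that did not pass the test ranged from -0.18 to 0.068, with 17 below 0.

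**Figure D2:**
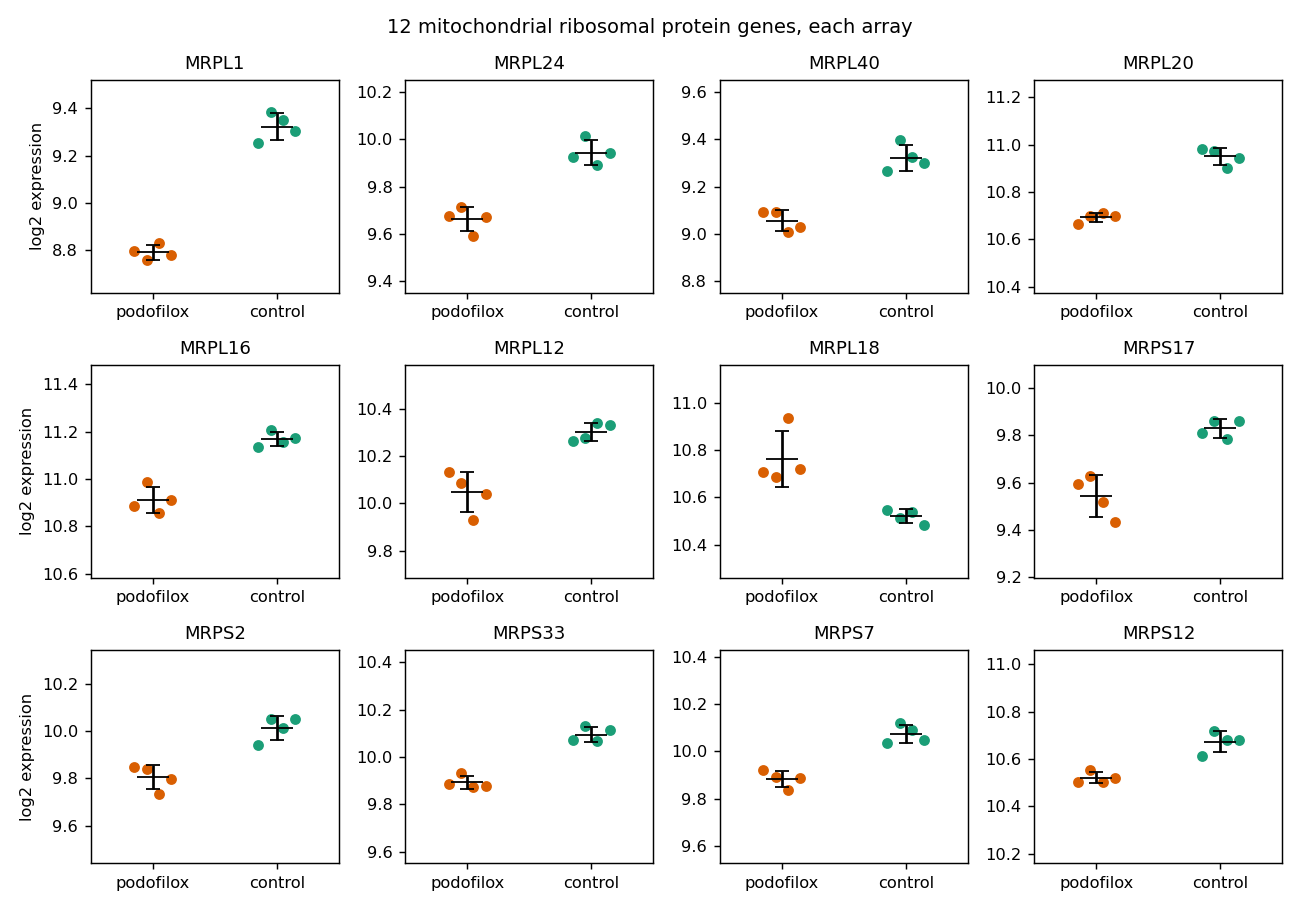
Each panel shows log2 expression (vertical axis, a range of its own but the same span in every panel) of 1 gene on 4 podofilox and 4 control arrays, with the mean and the SD as bars. In 11 of the 12 genes every podofilox point lies below every control point, and in MRPL18 every podofilox point lies above.

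**Figure D3:**
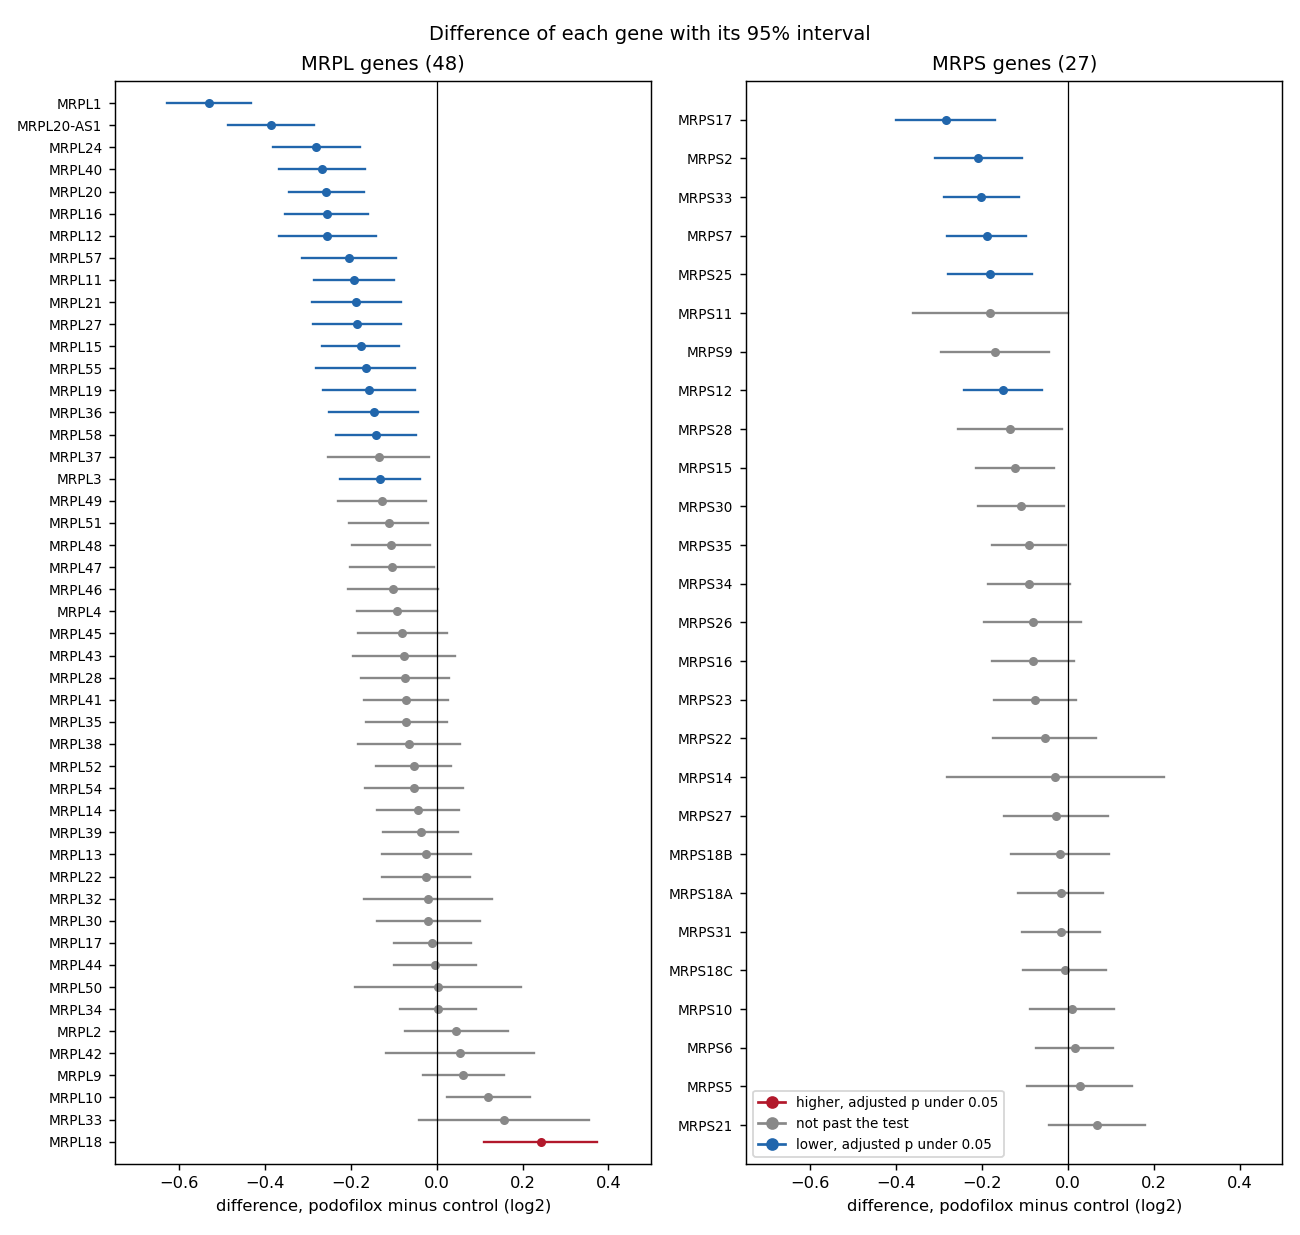
Points are the differences between podofilox and control (horizontal axis, log2) of the 48 MRPL and 27 MRPS genes, ordered by size, with 95% intervals of the limma fit, and blue and red mark genes with an adjusted p under 0.05. The 17 MRPL and 6 MRPS genes in blue lie left of 0, and MRPL18 in red lies right of it at 0.24.

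Median differences lay below 0 for the proteins kept from bacteria and for those found only in mitochondria. Of the 43 members kept from bacteria 17 fell and 1 rose, with a median difference of -0.093. Of the 30 mitochondria-specific members 5 fell and 0 rose (0 also at an unadjusted p under 0.05), with a median of -0.079. The fallen shares were 39.5% and 16.7%. Over all genes 12.5% fell and 8.55% rose, and among genes above the median signal 21.5% fell and 12.4% rose. The difference between these classes was not tested. MRPL20-AS1 and MRPS28 have no structural name in RefSeq and stand in neither class.

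Other probe sets of the same genes gave a partial second reading. The 75 members have 166 single-gene probe sets, so 91 were not used for the counts above, and 14 of these were lower and 1 higher at an adjusted p over the 44988 single-gene probe sets, of which 10.2% were lower and 7.83% higher. Among the 23 members that fell, 13 have other probe sets, 23 in all, of which 18 lay below 0 and 12 passed as lower. In 8 of these 13 members every other probe set lay below 0, and in 5 at least 1 lay above. Probe sets of 1 gene can share transcripts and arrays, and are no replicates.

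Genes that act on the mitochondrial ribosome, its RNA or its products were read in lists taken from textbook knowledge. The counts stand beside 12.5% fallen and 8.55% risen over all genes. Among genes above the median signal these shares were 21.5% and 12.4%. Translation factors had 7 of 16 measured genes fallen and 0 risen (0 also at an unadjusted p under 0.05), with a median difference of -0.10. The ribosome recycling factor MRRF averaged 7.35 ± 0.07 with podofilox and 7.76 ± 0.09 in controls (SD, n = 4 each), a difference of -0.41 by limma (adjusted p = 0.000945). TSFM, elongation factor Ts, differed by -0.23, MTRES1, which rescues stalled ribosomes, by -0.24, and SLIRP, the partner of the mRNA-stabilising protein LRPPRC, by -0.19, and all 3 passed the test. Of the 4 other mitoribosome proteins measured 0 passed the test (2 were lower at an unadjusted p under 0.05 in limma), and the values were -0.12 for GADD45GIP1, -0.096 for CHCHD1, -0.057 for PTCD3 and -0.063 for DAP3.

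Assembly factors had 12 of 30 genes fallen and 2 risen, with a median of -0.16. The GTPase MTG1 averaged 8.76 ± 0.09 with podofilox and 9.34 ± 0.05 in controls (SD, n = 4 each), a difference of -0.58 by limma (adjusted p = 0.000105). The helicase DDX28 differed by -0.37, the GTPase GTPBP6 by -0.33 and the pseudouridine synthase TRUB2 by -0.29, all past the test. The 2 that rose were MALSU1, a large subunit assembly factor, at 0.16 and the rRNA methyltransferase METTL15 at 0.25, both named after their values were seen.

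Mitochondrial DNA and RNA synthesis had 8 of 12 genes fallen and 0 risen (0 also at an unadjusted p under 0.05), with a median of -0.19. The single-stranded DNA binding protein SSBP1 differed by -0.51, the helicase TWNK by -0.33, the primase-polymerase PRIMPOL by -0.42 and MTERF2, of the mitochondrial termination factor family, by -0.52. All 4 passed the test, and their podofilox and control arrays did not overlap. Of 11 transcription regulators of nuclear mitochondrial genes, 4 fell and 1 rose, with a median of -0.062. The coactivator PPRC1 differed by -0.31, NRF1 by -0.32 and the GABP subunit GABPB2, a dim gene whose groups overlap, by -0.32, whereas SP1 rose by 0.14. The proteins that mitochondrial DNA encodes were measured for 3 of 13 genes. Of these 0 passed the test (0 also at an unadjusted p under 0.05 in limma), with differences of 0.08 for ND4, 0.18 for COX3 and -0.0082 for ND1. Their mean signals were high, 12.99 to 14.59, beside a highest value of 15.02 on any array. Such signals may understate differences, which was not tested.

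Nuclear subunits of the respiratory chain and ATP synthase had 14 of 74 genes fallen and 0 risen (1 was higher at an unadjusted p under 0.05), with a median of -0.058. All 74 lie above the median signal. The fallen share of 18.9% is below the 21.5% of all genes above that signal. The complex I subunits NDUFB2, NDUFB9 and NDUFB10 differed by -0.29, -0.26 and -0.28 and the ATP synthase subunit ATP5PF by -0.19. Cytosolic ribosomal proteins, the counterparts in the main ribosome of the cell, had 2 of 69 genes fallen and 1 risen, with a median of 0.0026. Their median signal was 14.02, close to the highest value on any array, 15.02. Differences may be understated at such signals, which was not tested. RPL35A differed by -0.38, RPL13 by -0.15 and RPL3L, which was dim, by 0.18, all past the test, while RPL10A at -0.12 did not pass. Differences between lists were not tested.

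**Figure D4:**
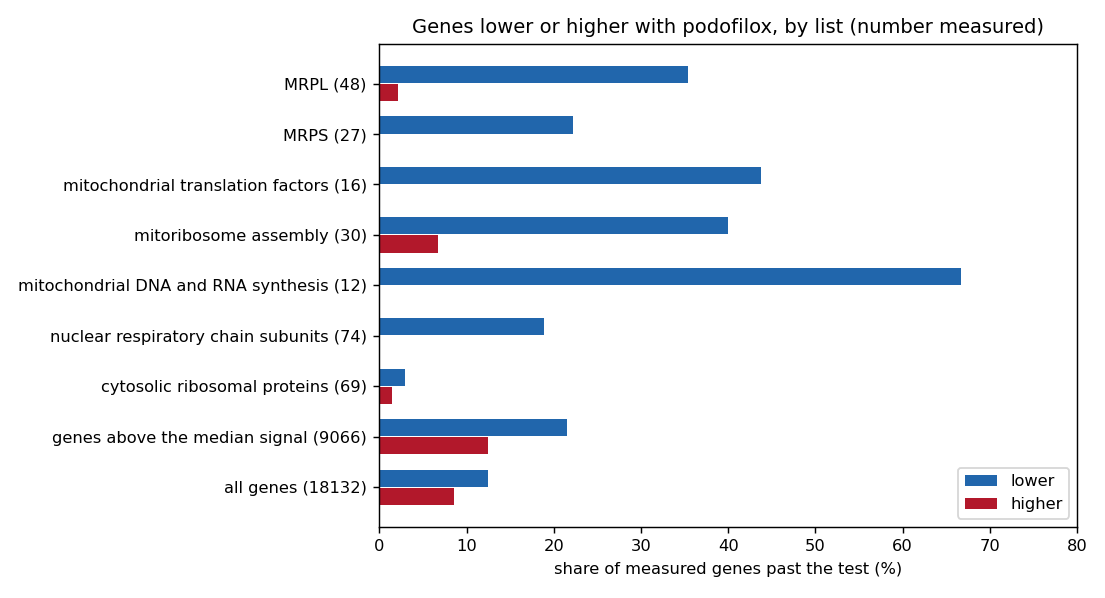
Bars show the share of measured genes (horizontal axis, %) lower (blue) or higher (red) with podofilox at a limma adjusted p under 0.05, for the MRPL and MRPS genes, 5 other lists and 2 backgrounds. The longest blue bar is that of mitochondrial DNA and RNA synthesis, 8 of 12 genes, and cytosolic ribosomal proteins have the shortest, 2 of 69.

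Promoters of the family, the 250 bases before and 50 after the start, were found for 67 of the 74 protein-coding members in the RefSeq table. MRPL2, MRPL10, MRPL13, MRPL15, MRPL21, MRPL35 and MRPS28 had none there. The ETS element shown in capitals above was present on either strand in 28 of 67 promoters (41.8%), in 16 of 41 MRPL (39.0%) and 12 of 26 MRPS promoters (46.2%). It was present in 14.7% of the 14085 promoters of tested protein-coding genes and in 20.8% of those of other genes above the median signal. Members that fell had it in 8 of 20 promoters (40.0%), members that did not pass the test in 20 of 46 (43.5%). These 2 shares lay close together and were not compared by a test.

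A YY1 element, searched on both strands in its long form, was present in 9 of 67 member promoters (13.4%), against 1.47% of all promoters and 2.32% of those of other genes above the median signal. Of the members that fell 1 of 20 had it, and of those that did not pass the test 8 of 46. An NRF1 element, the palindrome of the consensus, was in 1 of 67 (1.49%), against 1.83% of all. The E-box CACGTG, the element that MYC binds, was in 6 of 67 (8.96%), against 8.84% of all. Both of these elements read the same on either strand. Of the 37 ETS matches in member promoters, 22 began within 60 bases before the start, in 19 genes, and 7 genes had at least 2 matches. A match is a description of letters and not of a bound site.

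**Figure D5:**
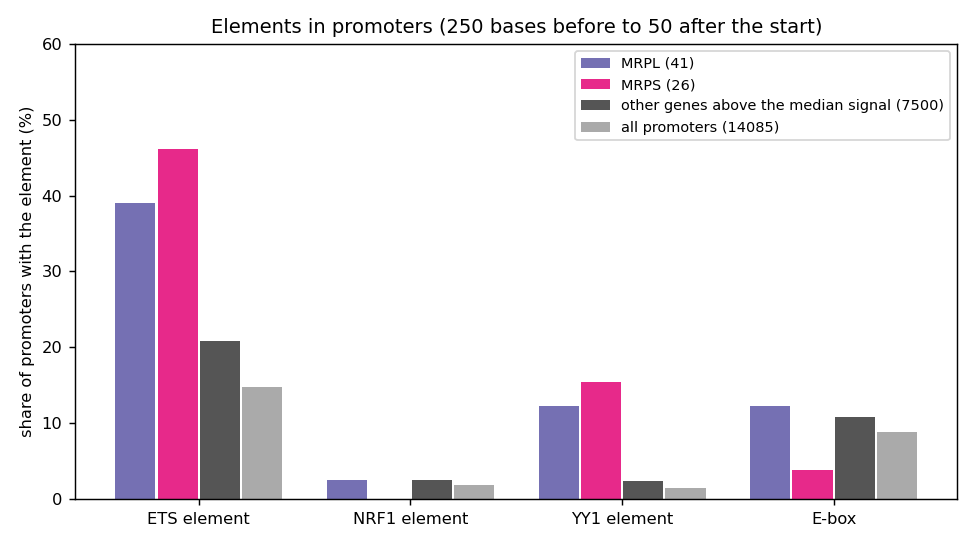
Bars give the share of promoters (vertical axis, %) with each element on either strand, for 41 MRPL, 26 MRPS, 7500 other genes above the median signal and all 14085 promoters. The ETS element is in 39.0% of MRPL and 46.2% of MRPS promoters and in 14.7% of all, while the NRF1 element is in 1 member promoter of 67.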

How the data were processed

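The authors deposited a log2 value for every probe set on each array, made with RMA per the submitters' processing notes (robust multi-array average, which normalizes arrays by quantiles). Its software is not given in the sources used here, and the table has no detection calls. Of 49395 probe sets, 44988 name 1 gene, 1832 several and 2473 none here, and 102 are controls. The rule for members and gene lists was chosen with earlier results of these data known. MRPL23, MRPL53 and MRPS24, which only have probe sets naming several genes, and MRPS36, which the annotation lists as KGD4, were not analysed here.

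All 8 arrays entered 1 linear model with a group term only, fitted by lmFit and eBayes (limma 3.58.1, R 4.3.3). A gene fell or rose where the two-sided p, adjusted after Benjamini-Hochberg over 18132 genes, was under 0.05. The number of arrays limits the precision. Fits were tested on simulated data. Signals of different genes were compared only to place them above or below the median gene, a rough guide since probes differ in brightness. Per subunit, members named are the 8 with the largest falls past the test, any that rose, the 3 nearest 0, those beside the threshold, and 8 with known roles, and per other list the 4 with the smallest p. The factor elements and the 6 windows printed were chosen after values were seen. Classes of members come from RefSeq synonyms. Alternatives were signal filters, normalizations, fits, blocks, probe set choices, stricter calls and each array left out. Figures were drawn with matplotlib 3.10.9.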

Additional observations from a re-analysis of the deposited data

Results flagged for a closer look

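Among the named members, 58 groups of 4 arrays were looked at for a sample far from the others, and 2 were found. In a group where nothing is unusual, chance gives such a sample in about 1 of 20. MRPL18 read 10.94 on podofilox array 3, against 10.69 to 10.72 on the other podofilox arrays. MRPS31 read 9.26 on control array 2, against 9.25 on the other control arrays, a gap of about 0.01 that stands out only because those 3 arrays agree so closely.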

How the results depend on the processing

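The members past the test numbered 18 in the MRPL genes and 6 in the MRPS genes, beside 21 in the lists of other mitoribosome proteins, translation factors and assembly factors, and 3810 of all genes. With the replicate number as a block (replicate block) these counts were 11, 5, 12 and 2741. The numbers share no stated origin. Deviations from the group mean correlated at -0.24 to 0.09 between same-numbered arrays and at -0.15 to 0.24 between the other pairs. With so few arrays this shows no pairing but cannot exclude one. Fits on arrays 1 and 2 of each group alone gave 2, 0, 3 and 1010, and fits on arrays 3 and 4 gave 9, 3, 10 and 2300, where fewer arrays enter. For the MRPS genes on arrays 1 and 2, limma found 5 at an unadjusted p under 0.05. All 23 members that fell lay below 0 within each of these array pairs. In 16 MRPL and 6 MRPS genes of these, no podofilox array reached a control array. That fixes the sign within each pair in advance, so nothing is read from it. The MRPL median was -0.11 on arrays 3 and 4. An adjusted p under 0.01 left 8 MRPL genes, and the count over all genes was not taken at that threshold. Testing only genes above the median signal gave 11 MRPS genes, beside 4074 of the 9066 genes tested. An intensity trend with robust estimation gave 10 MRPS genes, beside 4449 of 18132 genes. The cause was not tested for either MRPS count. Leaving out 1 array at a time gave 10 to 16 MRPL genes, with 10 without control array 4, and 5 to 7 MRPS genes. It gave 12 to 19 genes of the other lists, with 12 without control array 3 or control array 4. The medians of both subunits stayed below 0 in every alternative run. Of the 23 falls, 15 passed with any 1 array left out. MRPL58 was lost without podofilox array 1, 2 or 4 or control array 2, 3 or 4, MRPS12 without podofilox array 1 or 4 or control array 2, 3 or 4, and MRPL36 without any array but podofilox array 2. With probe sets of the _x_at and _s_at kinds left out, MRPL20 reversed to 0.062 (adjusted p = 0.793 by limma), as a dimmer probe set then stands for it. Over 550 alternatives of the named members, 484 left the call as it was, 57 lost it, 8 gained it and 1 reversed. Of the 484, 30 changed sign, all in 8 members near 0 that did not pass the test. The dimness of a probe set could not be judged against a background, since the table has no detection calls.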
